A study of Mus musculus with 8 samples.

Results

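The phagocyte NADPH oxidase was followed through 5 of 18193 annotated genes, Cybb, Cyba, Ncf1, Ncf4 and Rac2, in ankle joints of 5-month-old mice. Its members were all probe sets (groups of short probes that together read 1 transcript on the array) annotated to 1 of these genes and to no other. There were 10 of them among 45101 in the table, 3 for Cybb, 3 for Ncf1, 2 for Rac2 and 1 each for Cyba and Ncf4. Whole ankle joints were profiled on 8 single-colour Affymetrix arrays. In the wild-type group (2 arrays), TNF and sphingosine kinase 1 activity were normal. The hTNF group (3 arrays) carried a transgene for human TNF, the inflammatory cytokine whose overexpression serves as a model of chronic arthritis, with sphingosine kinase 1 left normal. The remaining group (3 arrays) carried the same transgene and was labelled as lacking functional sphingosine kinase 1 (Sphk1), the kinase that makes the lipid mediator sphingosine 1-phosphate. All mice were of the same age, and the transgenic line, its promoter, the strain and the sex of the mice are not stated in the labels. The comparisons ask how the oxidase genes differ between the arthritic and the normal joint, and whether loss of Sphk1 changes them in the arthritic joint.

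The oxidase transfers electrons from NADPH across the membrane of a phagosome or cell to oxygen and so produces superoxide, from which neutrophils and macrophages make further oxidants against microbes. Its catalytic core is a membrane heterodimer of gp91phox (encoded by Cybb) and p22phox (Cyba). It is inactive until cytosolic subunits, among them p47phox (Ncf1) and p40phox (Ncf4), and a Rac GTPase join it, which in leukocytes is mainly Rac2. Loss of one of the subunits causes chronic granulomatous disease. Carriers of some Ncf1 variants among rodents develop more severe arthritis, so the complex is known in joints both as a weapon of infiltrating cells and as a brake on autoimmunity.

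The start regions of 3 of the 5 genes were taken from RefSeq on build GRCm38.p6. They are shown because all 5 genes were higher in both transgenic groups than in wild type. Each runs from 250 bases before the transcription start to 20 bases after it, 5′ to 3′ along the gene, and all 3 genes lie on the minus strand. The Cybb window is at chrX:9469305-9469574, that of Ncf1 at chr5:134229606-134229875 and that of Cyba at chr8:122432921-122433190. Capitals mark matches, on either strand, to GAGGAA (a core bound by the myeloid factor PU.1), a pair of GAAA boxes with any 2 bases between them (as bound by interferon regulatory factors), CCAAT (the CCAAT box) and GGGCGG (the GC box).
Cybb: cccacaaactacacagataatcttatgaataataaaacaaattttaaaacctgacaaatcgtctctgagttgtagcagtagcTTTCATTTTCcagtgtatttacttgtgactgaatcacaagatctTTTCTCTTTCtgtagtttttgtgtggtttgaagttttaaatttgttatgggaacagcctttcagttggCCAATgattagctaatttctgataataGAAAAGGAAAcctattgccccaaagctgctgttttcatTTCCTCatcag
Ncf1: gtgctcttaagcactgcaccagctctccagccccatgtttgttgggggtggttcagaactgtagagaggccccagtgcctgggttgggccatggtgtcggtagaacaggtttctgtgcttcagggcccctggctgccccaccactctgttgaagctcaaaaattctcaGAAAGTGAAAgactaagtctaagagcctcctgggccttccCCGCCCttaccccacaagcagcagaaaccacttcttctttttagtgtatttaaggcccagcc
Cyba: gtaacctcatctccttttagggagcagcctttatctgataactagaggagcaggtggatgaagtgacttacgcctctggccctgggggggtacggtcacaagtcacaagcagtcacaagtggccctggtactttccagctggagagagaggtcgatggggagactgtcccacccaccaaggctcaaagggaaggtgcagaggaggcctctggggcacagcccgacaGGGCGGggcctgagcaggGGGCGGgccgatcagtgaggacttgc
The Cybb window held the paired GAAA boxes at 3 places, 168 to 159, 124 to 115 and 29 to 20 bases before the start, and the Ncf1 window at 1 place, 82 to 73 bases before it. Of 32851 promoter windows of the same length, 3.21% held such a pair. Cybb also held GAGGAA on the opposite strand 10 to 15 bases after the start (25.1% of windows) and a CCAAT box 56 to 52 bases before it (35.4%). Cyba held the GC box at 2 places, 24 to 19 and 6 to 1 bases before the start, and Ncf1 at 1 place (34.1% of windows). A match describes letters only and is not evidence of binding; the motifs were chosen with the sequences in view.

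Some arrays stood apart within their group. The array of wild-type replicate 2 had a mean of 10.47 log2 over 13 neutrophil markers against 7.66 on replicate 1. The mean of 13 skin markers ran from 6.29 to 11 within the hTNF group. Xist was high (11.19 to 13.09 log2) together with some signal of the Y-linked gene Eif2s3y (6.60 to 9.14) on wild-type replicate 2, hTNF replicate 1 and replicate 1 of the arrays labelled Sphk1 null. Of these, only the last also had the Y-linked genes Kdm5d (7.22) and Uty (6.89) at the level of the arrays without Xist; Kdm5d was at 4.24 and 4.27 on the others. Results were also computed without these 3 arrays, which leaves replicate 1 as the only wild-type array. Xist was at 7.45 log2 on that array, at 7.29 and 13.16 on the remaining hTNF arrays and at 12.89 and 13.10 on the remaining arrays labelled Sphk1 null. Sphk1 itself rose by 1.32 ± 0.15 log2 in hTNF against wild type and was highest in the group labelled null (9.94 to 10.22 log2, against 8.28 to 8.65 in hTNF), and a probe set whose position relative to the inactivated part is unknown does not check that label. Joint markers such as lubricin (Prg4, 14.30 to 14.52 log2 on all arrays) and the collagen Col1a1 (13.28 to 14.40) were bright. Nothing in the labels says that the mice of a group came from separate litters, so p-values measure the spread between arrays, which may be technical in part.

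All 5 oxidase genes were higher in hTNF joints than in wild-type joints. Cybb, Ncf1, Ncf4 and Cyba rose by 1.85 to 2.82 log2, and Rac2 by 0.87. By probe set, 9 of 10 rose and none fell, where 16.6% of all 24115 tested probe sets rose, 16.4% fell and 33% were called in either direction. All 10 had every hTNF array above both wild-type arrays, as had 30.6% of tested probe sets. The dimmest Ncf1 and the dimmer Rac2 probe set (2 of 10) were below the filter's level, the table median, on both wild-type arrays and passed it only through the transgenic arrays, so these counts are a description. The median difference of the 5 genes, each by its brightest probe set, was 2.39 log2, and that of all 12362 tested genes was -0.02. The test was limma's moderated fit of 1 mean per group to all 8 arrays, and a probe set was called where the p-value, adjusted by Benjamini-Hochberg over all tested probe sets, lay under 0.05. In whole joints, more cells of a type and more RNA per cell cannot be told apart.

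**Figure D1:**
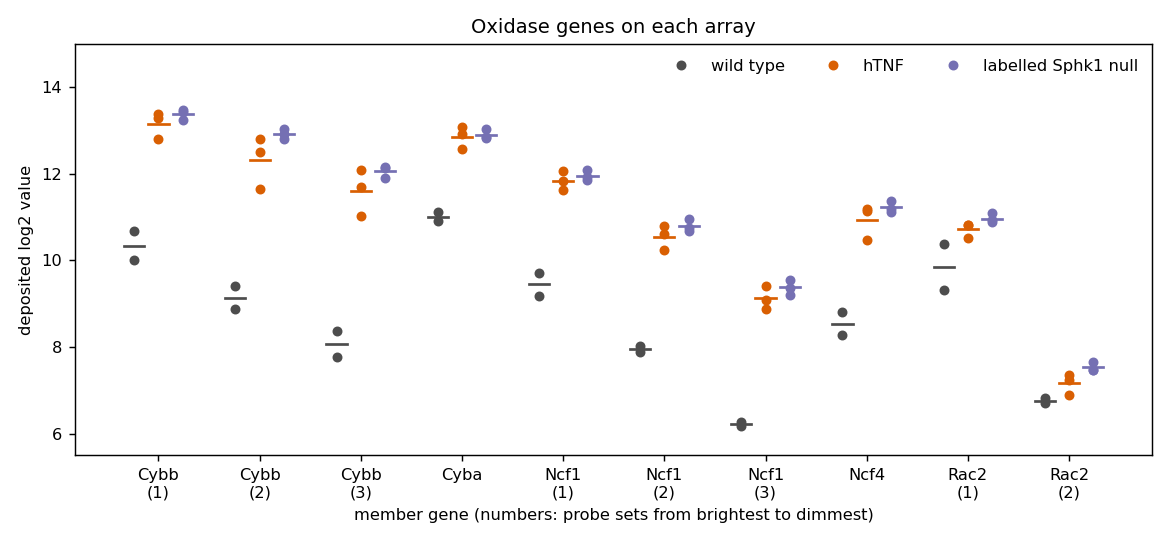
Deposited log2 values of the 10 oxidase probe sets on each of the 8 arrays, with a bar at the mean of each group; wild type is grey (2 arrays), hTNF orange (3) and labelled Sphk1 null purple (3). The transgenic arrays lie far above wild type for Cybb, Cyba, Ncf1 and Ncf4, and close above wild-type replicate 2 for the brightest Rac2 probe set (10.52 against 10.38).

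Cybb encodes gp91phox, the subunit that carries the flavin and heme groups through which electrons pass. On its brightest probe set the wild-type arrays were at 10.01 and 10.67 log2, and the values were 12.80, 13.29 and 13.38 in hTNF and 13.43, 13.48 and 13.24 in the group labelled Sphk1 null. Every transgenic array was thus more than 2 log2 above the higher wild-type array, with a gap of 2.13 to the nearest. The difference between hTNF and wild type was 2.82 ± 0.21 log2 (SE), or 7.05-fold, with a limma adjusted p of 3.28e-05, and ranked 36 among the tested genes from the largest rise.
The other Cybb probe sets were dimmer and showed larger differences. On the second, wild type was at 8.87 and 9.40 and hTNF at 11.65, 12.51 and 12.80, a difference of 3.19 ± 0.29. The dimmest read 7.77 and 8.37 against 11.03, 11.69 and 12.10, a difference of 3.54 ± 0.28 or 11.6-fold, with a limma adjusted p of 4.48e-05. All 3 had hTNF replicate 1 as the lowest of the transgenic arrays. Cybb lies on the X chromosome and the arrays differed in sex-linked signal; with Y-linked signal as a covariate its difference was 2.80 (limma adjusted p = 4.1e-05).

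Cyba encodes p22phox, which stabilises gp91phox in the membrane and docks the cytosolic subunits. Its wild-type values were 10.91 and 11.11 log2, followed by 12.58, 13.08 and 12.91 in hTNF and 13.03, 12.85 and 12.83 in the group labelled Sphk1 null. Wild-type arrays differed by 0.20 log2, and the lowest transgenic array was 1.47 above the higher of them. The difference between hTNF and wild type was 1.85 ± 0.14 log2 (SE; 3.60-fold), with a limma adjusted p of 3.74e-05.

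Ncf1 encodes p47phox, the organiser subunit whose phosphorylation starts assembly. For the brightest probe set, wild-type joints were at 9.19 and 9.72 log2, with 11.63, 11.83 and 12.06 in hTNF and 12.08, 11.92 and 11.86 in the group labelled Sphk1 null. The lowest hTNF array lay 1.91 log2 above the higher wild-type array, and the difference of the means was 2.39 ± 0.17 (SE; 5.22-fold; limma adjusted p = 2.83e-05). The other probe sets, designed from 1 transcript accession, differed by 2.60 ± 0.16 and 2.90 ± 0.17. On the dimmest one, wild type read 6.18 and 6.28, below the median of the whole table (6.87), so the size of that rise depends on the background.

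Ncf4 encodes p40phox, which binds a phosphoinositide of the phagosome membrane and sustains oxidase activity there. Wild-type joints were at 8.27 and 8.81 log2, with 10.47, 11.18 and 11.15 in hTNF and 11.37, 11.19 and 11.13 in the group labelled Sphk1 null. Replicate 1 of hTNF was lowest among the transgenic arrays, still 1.66 above the higher wild-type array. The difference between hTNF and wild type was 2.39 ± 0.23 log2 (SE; 5.25-fold; limma adjusted p = 0.000112).

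Rac2 encodes the GTPase that switches the assembled complex on and also controls the leukocyte cytoskeleton. On its brighter probe set the wild-type joints were at 9.31 and 10.38 log2, with 10.52, 10.81 and 10.82 in hTNF and 10.88, 10.93 and 11.09 in the group labelled Sphk1 null. The groups did not overlap, but wild-type replicate 2 was only 0.14 below the lowest hTNF array and 1.07 above replicate 1. The difference between hTNF and wild type was 0.87 ± 0.26 log2 (SE; 1.83-fold; limma adjusted p = 0.0277).
The size and the call of this rise rested on single arrays. It was 0.34 without wild-type replicate 1 (adjusted p = 0.190), 1.41 without wild-type replicate 2 (0.000797), 0.82 without hTNF replicate 2 (0.0694) and 0.82 without replicate 3 (0.0789). Fitted on only the hTNF and wild-type arrays, the limma adjusted p was 0.0701. The dimmer Rac2 probe set, at 6.70 and 6.82 in wild type and 6.89, 7.25 and 7.35 in hTNF, differed by 0.40 ± 0.16 and was not called (limma adjusted p = 0.0859), but was called without hTNF replicate 1 (0.0265). Against wild type, the group labelled Sphk1 null had both Rac2 probe sets called, at 1.12 ± 0.26 and 0.78 ± 0.16. The brighter one was at 1.70 without the 3 arrays with both Xist and Eif2s3y signal, against wild-type replicate 1 alone. Without wild-type replicate 1 the brighter one was at 0.59 there (limma adjusted p = 0.0283).

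The log2 ratio of pairs of these genes, each by its brightest probe set, was taken within every array; this was chosen after the values were seen and is a description, with no test. The ratio of Cybb to Rac2 was 0.70 and 0.29 log2 in wild type and 2.15 to 2.56 on the 6 transgenic arrays, a mean difference of 1.93. That of Cybb to Cyba was -0.90 and -0.44 in wild type and 0.21 to 0.63 on the transgenic arrays, a mean difference of 1.06. For Cyba to Rac2 the wild-type ratios were 1.60 and 0.73, the first only just below the transgenic range of 1.74 to 2.27. For Ncf1 to Ncf4 the ratio was 0.92 and 0.91 in wild type, inside the transgenic range of 0.65 to 1.16. Probe sets of 1 gene differed among themselves as much as some genes did: the rise in hTNF was 2.82, 3.19 and 3.54 over those of Cybb and 2.39, 2.60 and 2.90 over those of Ncf1, so no order of Cybb and Ncf1 follows from their ratio.

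Between the transgenic groups no oxidase gene was called. All 10 probe sets averaged higher in the group labelled Sphk1 null than in hTNF, by 0.05 to 0.60 log2, and limma called 0 of 10 (2 at an unadjusted p under 0.05, and 0 to 5 when 1 array was left out: 0 without hTNF replicate 1 or replicate 3 of the group labelled null, 5 without hTNF replicate 3). Over all tested probe sets, 0.00829% were called and 7.61% had an unadjusted p under 0.05. The difference was 0.23 log2 for Cybb (95% interval -0.20 to 0.65), 0.05 for Cyba (-0.24 to 0.33), 0.11 for Ncf1 (-0.23 to 0.46), 0.30 for Ncf4 (-0.16 to 0.76) and 0.25 for Rac2 (-0.27 to 0.77). The limma adjusted p of these 5 lay between 0.746 and 0.948. For Cyba the interval leaves room for a rise of up to 1.26-fold and for Ncf4 of up to 1.69-fold, so equal levels are not shown. The groups did not overlap for the Rac2 probe sets, as in 5.34% of all tested probe sets in this direction; the dimmer read 7.47, 7.48 and 7.66 in the group labelled null, a difference of 0.37 ± 0.14 (limma adjusted p = 0.636). The second Cybb probe set read 12.92, 13.03 and 12.80 there, a difference of 0.60 ± 0.26 (limma adjusted p = 0.655).
These differences were smaller without 1 of the hTNF arrays. Replicate 1 of hTNF was the lowest of the 6 transgenic arrays on all 10 oxidase probe sets, as on 22.4% of all tested probe sets, and lay 0.30 to 1.01 log2 below the mean of the other hTNF arrays. Without it the difference of the second Cybb probe set was 0.26, that of the brightest Cybb probe set 0.05 and that of Cyba -0.09 (limma adjusted p = 0.999 for each). Those of Ncf1 (0.01), Ncf4 (0.07) and Rac2 (0.15) stayed positive. The same array had the highest skin marker mean, 11 log2 against 6.29 and 8.19 on the other hTNF arrays. Its 18 macrophage markers averaged 11.13 against 11.33 and 11.42, and its 11 pan-leukocyte markers 11.47 against 11.62 and 11.70. With the skin marker mean as a covariate, the differences between the transgenic groups were 0.20 for Cybb, 0.03 for Cyba, 0.11 for Ncf1, 0.27 for Ncf4 and 0.23 for Rac2, close to those without it. The part of the macrophage and pan-leukocyte markers was not tested.

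**Figure D2:**
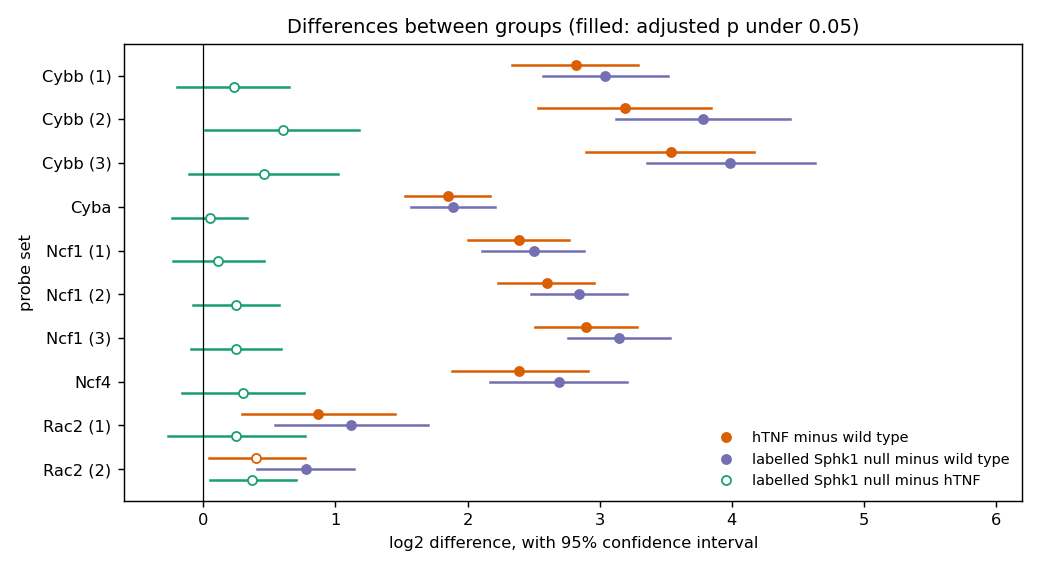
Log2 differences between groups for each oxidase probe set, with 95% confidence intervals from limma; filled points passed an adjusted p under 0.05. Both comparisons with wild type lie far to the right of 0 except for Rac2, and the 10 differences between the transgenic groups lie between 0.05 and 0.60, none filled.

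Set against wild type, the group labelled Sphk1 null showed all 10 oxidase probe sets higher, where 18.7% of tested probe sets rose, 20.2% fell and 39% were called in either direction. Every array of that group lay above both wild-type arrays on all 10, as on 28.7% of tested probe sets. The 10 include the 2 that passed the filter only through the transgenic arrays, so these counts too are a description. This comparison shares its wild-type arrays with that of hTNF. The differences were 3.04 ± 0.21 log2 for Cybb, 1.89 ± 0.14 for Cyba, 2.50 ± 0.17 for Ncf1, 2.69 ± 0.23 for Ncf4 and 1.12 ± 0.26 for Rac2 (SE, 3 arrays against 2). Their limma adjusted p was at most 3.96e-05 except for Rac2 (0.00719).

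Other subunits and relatives of the oxidase changed less. Of 14 such genes listed, 8 were tested; 2 rose in hTNF joints against wild type and none fell, with a median difference of 0.43 log2. Across all tested genes, 16.5% rose. The genes that rose were Noxo1, the counterpart of p47phox in the oxidase of epithelia (0.90 ± 0.16 log2, from 7 and 6.85 in wild type to 7.53, 7.90 and 8.03 in hTNF; limma adjusted p = 0.00271), and Cybc1, a chaperone needed for stable gp91phox (0.71 ± 0.12; 0.00223). Cybc1 was at 9 and 9.22 on the wild-type arrays and at 9.74, 9.79 and 9.93 in hTNF. Rac1, the widely expressed relative of Rac2, read 12.79 to 13.09 on all 8 arrays by its brightest probe set. It differed by 0.14 ± 0.07 (limma adjusted p = 0.157), while a dimmer Rac1 probe set rose by 0.42 ± 0.09 (0.00657). Nox4, a constitutively active relative found in mesenchymal cells, was at 8.22 and 8.14 on the wild-type arrays, at 8.26, 8.42 and 8.66 for hTNF and between 8.80 and 8.85 for the group labelled Sphk1 null. It differed by 0.27 ± 0.13 between hTNF and wild type (limma adjusted p = 0.156) and by 0.37 ± 0.12 between the transgenic groups, where the groups did not overlap but the test was not passed (limma adjusted p = 0.605). In the group labelled Sphk1 null against wild type, 18.7% of all tested probe sets rose. Of the 8 tested relatives, 4 rose there: Noxo1, Cybc1, Nox4 (0.64 ± 0.13, limma adjusted p = 0.004) and Rac1 (0.20 ± 0.07, limma adjusted p = 0.041). These calls are by the brightest probe set. A dimmer Nox4 probe set differed by 0.17 ± 0.22 between the transgenic groups, which overlapped on it (limma adjusted p = 0.872). Its difference between the group labelled Sphk1 null and wild type was 0.56 ± 0.25, not called (limma adjusted p = 0.103). The call of the brightest Rac1 probe set ended when any 1 of 6 arrays was left out, with adjusted p up to 0.237 without wild-type replicate 2. Duox1 and its maturation factor Duoxa1 were not called, and were called without hTNF replicate 2 (limma adjusted p = 0.0252 and 0.0133).

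Most tested genes that activate the oxidase rose in the arthritic joint. Tested were 16 genes of the activating kinases, phospholipases, exchange factors and the proton channel. Of these, 13 rose in hTNF joints and none fell, with a median difference of 1.08 log2, where 16.5% of all tested genes rose. Pik3r5, an adaptor of phosphoinositide 3-kinase gamma, rose most (2.42 ± 0.18 log2; from 7.57 and 7.76 to 9.76, 10.26 and 10.23; limma adjusted p = 3.04e-05). The Src family kinase Fgr rose by 2.18 ± 0.19, the catalytic subunit Pik3cg by 1.55 ± 0.20, and Prkcd, a protein kinase C that phosphorylates p47phox, by 1.55 ± 0.14. The kinase Btk rose by 1.31 ± 0.13 and Hvcn1, the voltage-gated proton channel that carries off the charge the oxidase builds up, by 1.19 ± 0.20. Prkcb, another protein kinase C that acts on p47phox, differed by 0.00 ± 0.21 (limma adjusted p = 0.993), from 8.93 and 9.75 in wild type to 9.30 to 9.38 in hTNF. Pik3cd (0.10 ± 0.24) and Vav3 (0.41 ± 0.15) were not called by their brightest probe sets, though another Pik3cd probe set rose (0.63 ± 0.19; limma adjusted p = 0.0326). Between the transgenic groups limma called none of the 16. Of them, 2 had an unadjusted p under 0.05, Prkcd (0.34 ± 0.12) and Pik3r5 (0.39 ± 0.16), as had 7.61% of all tested probe sets. The transgenic groups overlapped for Prkcd, and a dimmer Prkcd probe set differed by -0.06 ± 0.11 between them.

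Of 7 tested factors reported at promoters of these genes, 6 rose in hTNF joints and none fell, where 16.5% of all tested genes rose. Spi1, which encodes PU.1, was at 8.37 and 8.38 log2 on the wild-type arrays and at 9.92, 10.64 and 10.31 in hTNF, a rise of 1.92 ± 0.19 (limma adjusted p = 0.000147). Cebpb rose by 1.05 ± 0.15, Irf1 by 0.82 ± 0.13, Irf8 by 0.73 ± 0.19 (1.03 on another probe set), Cebpd by 0.63 ± 0.17 and Elf1 by 0.47 ± 0.15. A second Cebpd probe set differed by 0.09 (limma adjusted p = 0.675) and a second Elf1 probe set by 0.25 (0.227), neither called; Cebpa differed by -0.19 ± 0.11 (limma adjusted p = 0.218). Without wild-type replicate 1 the count fell to 3 of 7, as Irf8 moved to 0.45 (limma adjusted p = 0.15), Cebpd to 0.69 (0.0692) and Elf1 to 0.31 (0.313). It was also 3 without hTNF replicate 3, with Irf8 at 0.63 (0.0544), Cebpd at 0.56 (0.0703) and Elf1 at 0.48 (0.0905). The call of Cebpd also ended without wild-type replicate 2 (0.113), and that of Elf1 without hTNF replicate 1 (0.117) and replicate 2 (0.0654). Between the transgenic groups none of the 7 was called. Only Cebpb had an unadjusted p under 0.05 (0.60 ± 0.14, limma adjusted p = 0.453). Of all tested probe sets, 7.61% had one.

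Enzymes that use superoxide or hydrogen peroxide went both ways. Of 7 tested, 2 rose in hTNF joints and 1 fell, with a median of 0.03 log2. Of all tested genes 16.5% rose, and of all tested probe sets 16.4% fell. The extracellular superoxide dismutase Sod3 rose by 0.95 ± 0.21 (limma adjusted p = 0.00766; 0.54 without wild-type replicate 2), and the glutathione peroxidase Gpx1 by 0.63 ± 0.07. The cytosolic dismutase Sod1 fell by its brightest probe set (-0.45 ± 0.09), while the other Sod1 probe sets, at 0.07 and -0.28, were not called (limma adjusted p = 0.681 and 0.149). The mitochondrial dismutase Sod2 was not called by its brightest probe set (0.44 ± 0.18; limma adjusted p = 0.0939), was called without hTNF replicate 1 (0.65; 0.00156), and of the other probe sets 1 rose (0.49 ± 0.14; 0.0263) and 2 were not called (0.19 and 0.48). Mpo, the neutrophil peroxidase that turns hydrogen peroxide into hypochlorous acid, was at 6.77 and 10.91 on the wild-type arrays and between 8.16 and 9.27 in hTNF, a difference of 0.03 ± 1.01. Wild-type replicate 2 was the highest of all 8 arrays for Mpo, whereas it was below every transgenic array on the 10 oxidase probe sets.

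**Figure D3:**
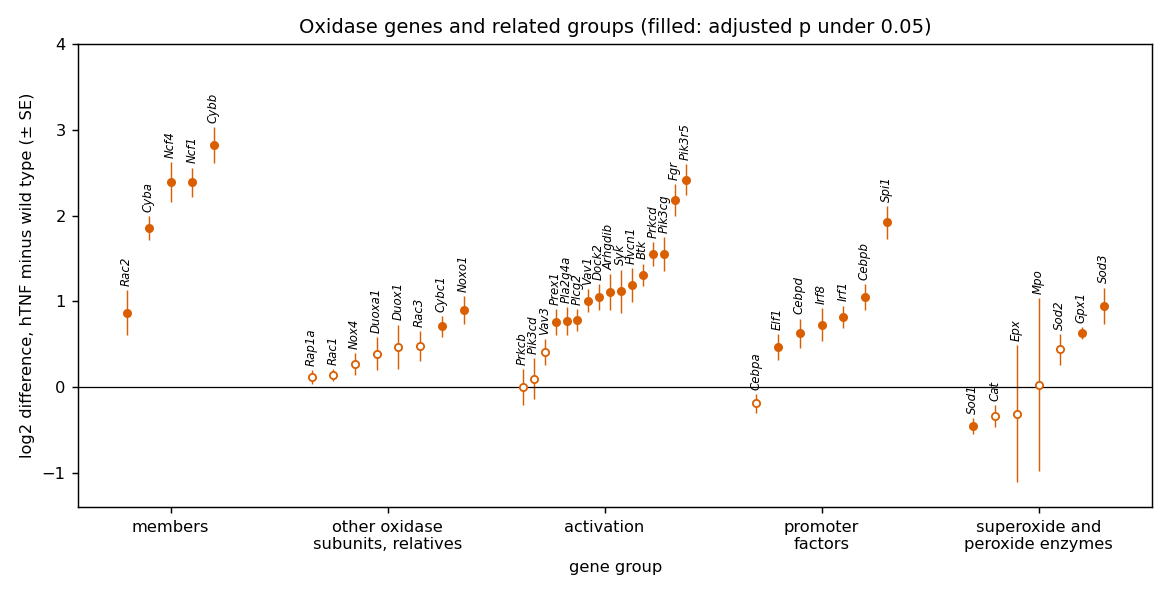
Log2 difference between hTNF and wild type (± SE, 3 arrays against 2) for the oxidase genes and the 4 related gene groups, each gene by its brightest tested probe set; filled points passed a limma adjusted p under 0.05. Among the members, Cybb is highest (2.82) and Rac2 lowest (0.87), and Pik3r5 (2.42), Fgr (2.18) and Spi1 (1.92) are the highest in the other groups.

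The genes nearest to each member were found by the root mean square difference between their log2 values over the 8 arrays, after each gene's mean over the arrays was subtracted; a small value means nearly the same profile. The genes nearest to Cybb were the ubiquitin ligase Rnf128 (0.0904 log2), Glipr1 (0.113) and the signal regulatory protein gene Sirpb1a (0.131). Nearest to Ncf1 were the C-type lectin Clec4a2 (0.0778), Gpr176 (0.109) and the C-type lectin Clec4a3 (0.114), and nearest to Ncf4 the inhibitory receptor Pirb (0.0843), the cytokine receptor chain Csf2rb (0.0876) and the receptor Pilra (0.111). Cyba was nearest to the platelet factor Pf4 (0.0973), Apobr (0.0984) and Rp2 (0.1), and 236 genes were nearer to it than Ncf1, its closest member (0.283). Ncf1 and Ncf4 differed by 0.156 log2 from each other, with 10 genes nearer to Ncf1 and 9 nearer to Ncf4 than the other member.
Rac2 stood apart from the other members. Its nearest genes were the mitotic kinase Aurkb (0.109 log2), the centriole kinase Plk4 (0.119) and the kinetochore motor Cenpe (0.121). Like Rac2, all 3 were lowest on wild-type replicate 1: Aurkb read 5.49 there and 6.68 on replicate 2, Plk4 read 6.83 and 7.54, and Cenpe 6.18 and 7, against 7.04 to 7.39, 8.06 to 8.36 and 7.46 to 7.73 on the transgenic arrays. They rose by 1.13 ± 0.29, 0.97 ± 0.19 and 0.94 ± 0.21 in hTNF against wild type. Without wild-type replicate 1, Aurkb moved to 0.53 (limma adjusted p = 0.0760), Plk4 to 0.61 (0.0240) and Cenpe to 0.53 (0.0580); without wild-type replicate 2, Aurkb was at 1.72. The distance of Rac2 to the other members was 0.460 to 0.854 log2, and 2904 genes were nearer to Rac2 than Cyba, the closest of them. These distances describe 8 arrays and say nothing of shared control.

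**Figure D4:**
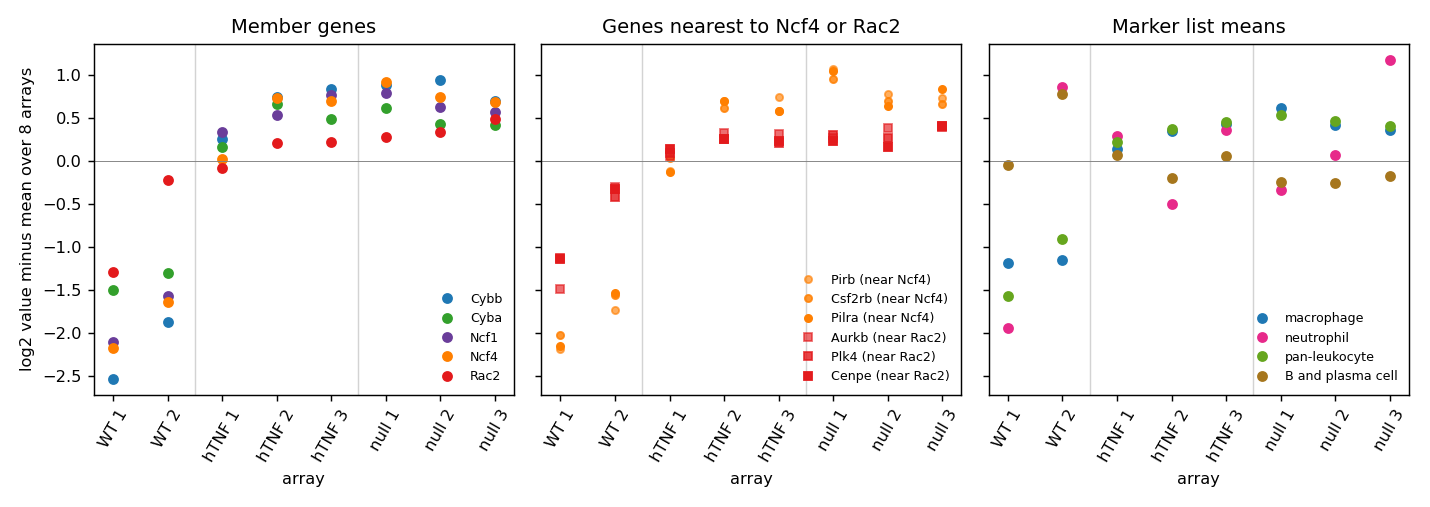
Log2 value minus the mean over the 8 arrays for the oxidase genes (left), for the 3 genes nearest to Ncf4 and to Rac2 (middle) and for the means of 4 marker lists (right), by array; vertical lines part the groups. Rac2 and its neighbours are lowest on wild-type replicate 1, Cybb, Ncf1 and Ncf4 are low on both wild-type arrays, and the neutrophil mean of wild-type replicate 2 (10.47) is above all hTNF arrays.

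Marker lists of the cell types that carry the oxidase differed in how many of their genes were called. Of all tested genes, 16.5% rose in hTNF joints. Of 18 tested macrophage markers, 15 rose there and none fell, with a median difference of 1.48 log2. Their mean was 9.80 and 9.83 on the wild-type arrays, 11.13 to 11.42 for hTNF and 11.35 to 11.60 in the group labelled Sphk1 null. The brightest were Lyz2 and Csf1r. Of 11 pan-leukocyte markers, 10 rose (median 1.51), and of 10 osteoclast markers 8 rose (median 1.47). Among the latter, Ocstamp and Dcstamp were below the filter's level on both wild-type arrays. They passed it only through the transgenic arrays, so the osteoclast count is a description. Of 13 tested neutrophil markers, 1 rose (Csf3r, 0.96 ± 0.17), and 9 averaged higher in hTNF (median 0.79). Their mean was 7.66 and 10.47 on the wild-type arrays. It was 9.10 to 9.96 for hTNF and 9.27 to 10.78 in the group labelled Sphk1 null. Their brightest genes, S100a8 and S100a9, read 10.45 and 9.94 on wild-type replicate 1 and 13.24 and 13.06 on replicate 2. With wild-type arrays this far apart, most of these differences were imprecise, as for Ngp (1.12 ± 1.15) and Ctsg (-0.42 ± 0.77). The count therefore cannot show whether neutrophil signal rose with the oxidase. Of the other listed neutrophil markers, Ly6g and Retnlg were absent from the data, and Cxcr2 and Padi4 lay below the filter. Of 7 T and NK cell markers 2 rose and of 8 B and plasma cell markers none; the means were 7.03 to 7.61 and 9.19 to 10.02 in wild type and 7.51 to 7.89 and 9.04 to 9.31 in hTNF. In none of these 6 lists did a gene fall between hTNF and wild type; in the group labelled Sphk1 null against wild type, 4 of the 8 B and plasma cell markers fell (median -0.68). Of 12 muscle markers 11 fell in hTNF against wild type (median -0.82), and of 13 skin markers none was called. Of all tested probe sets, 16.4% fell in hTNF against wild type and 20.2% in the group labelled Sphk1 null against wild type. By their brightest probe sets, single macrophage markers differed by -0.06 (Cd163) to 3.02 (Itgam) log2 between hTNF and wild type. The 5 oxidase genes, read the same way, lay within that range (0.87 for Rac2 to 2.82 for Cybb). The other Cybb probe sets, at 3.19 and 3.54, lay above it. Dimmer probe sets of the macrophage markers were not compared, so no order of Cybb and these markers follows. All 10 oxidase probe sets were higher on wild-type replicate 2 than on replicate 1, by 0.10 to 1.07 log2, as were 46.1% of tested probe sets; the pan-leukocyte mean was 9.68 on replicate 1 and 10.34 on replicate 2, that of macrophage markers 9.80 and 9.83, and that of neutrophil markers was higher on replicate 2 by 2.81. With the neutrophil mean as a covariate the difference between hTNF and wild type was 2.75 log2 for Cybb and 0.70 for Rac2 (limma adjusted p = 8.75e-05 and 0.0149). With the skin marker mean as a covariate it was 2.94 for Cybb and 0.96 for Rac2 (limma adjusted p = 1.58e-05 and 0.0184). The part of the macrophage, osteoclast, lymphocyte and muscle markers was not tested.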

How the data were processed

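RNA of 8 ankle joints was read on Affymetrix arrays, and the deposited log2 values per probe set were used as the authors gave them. Affymetrix Expression Console, RMA and MAS5 are named per the submitters' processing notes, with no version; the notes do not tie these values to any one of them. Medians per array lay between 6.84 and 6.89 log2, and the number of arrays limits the precision. Groups were taken from the labels.

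Gene names came from GEO's platform annotation, updated through a GRCm38.p6 gene table: 34945 probe sets named 1 gene, 932 several and 9160 none, and only the first were used. Probe sets above the table's median (6.87 log2) on at least 2 of 8 arrays were tested (24115). One mean per group was fitted with limma 3.58.1 (R 4.3.3; empirical Bayes with an intensity trend), with Benjamini-Hochberg adjustment over all tested probe sets; differences are given with their standard error (SE). The fit was tested on simulated data. A gene with several probe sets was represented by the brightest tested one, and other member probe sets were reported too.

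Named were all member probe sets and, of each related gene group, the called genes up to the 6 with the largest change. Rac1, Nox4, Spi1, Irf8 and the 3 genes nearest to each member were named whatever their values, and Sphk1 as a check of the labels; other genes were named after their values were seen. The members and the gene lists were chosen with earlier results of these data known. Alternatives were other filters, scalings, variance settings and covariates, a replicate block, and leaving out arrays. The main fit did not pair arrays by replicate number. Over 7 same-numbered pairs the correlation of deviations ran from -0.167 to 0.273, and 4 were over 0.1. Between the transgenic groups these pairs were at 0.228, 0.0545 and 0.251. With 2 wild-type arrays the deviations of that group mirror each other, so these values cannot settle whether the numbers mark pairs.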

Additional observations from a re-analysis of the deposited data

How the results depend on the processing

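Over 21 alternatives, the rise of Cybb, Cyba, Ncf1 and Ncf4 in hTNF against wild type passed the limma threshold each time, with ranges of 2.49 to 3.32, 1.73 to 2.08, 2.12 to 2.75 and 2.12 to 2.89 log2. That of Rac2 passed in 17 of 21 (0.34 to 1.5; adjusted p 0.000528 to 0.19). Leaving out 1 array at a time gave 8 to 10 called oxidase probe sets in this comparison, 0 between the transgenic groups and 10 for the group labelled Sphk1 null against wild type. In the same settings, 4695 (without wild-type replicate 1) to 9313 probe sets of the whole table were called between hTNF and wild type, 2 to 4 oxidase relatives, and 3 to 6 promoter factors. Between the transgenic groups, leaving out 1 array gave 0 to 3 calls over all probe sets, with 789 to 4890 at an unadjusted p under 0.05, against 2 in the full data. There were 1 with the stricter filter, 6 after quantile normalization, 1 with neutrophil markers as a covariate and 0 (3770 at an unadjusted p under 0.05) without the 3 arrays that carried both Xist and Eif2s3y signal, a setting chosen after seeing the data. Without those 3 arrays, 5 enzymes that use superoxide or peroxide were called between hTNF and wild type, against 3. The difference between the transgenic groups ran from -0.09 to 0.16 for Cyba when 1 array was left out, and turned negative without hTNF replicate 1 (-0.09), without replicate 1 of the group labelled null (-0.02) and without the 3 arrays (-0.15), and for Ncf1 (-0.05) and Ncf4 (-0.01) without the 3 arrays; none of these was called. The cause of these changes was not tested. With the replicate block, 6515 probe sets were called between hTNF and wild type, 2 between the transgenic groups and 7770 between the group labelled null and wild type; 9, 0 and 10 of them were oxidase probe sets, and Rac2 was at 0.82 (limma adjusted p = 0.0203).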
